A study of Mus musculus with 4 samples.

Results

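The mitochondrial respiratory chain genes described here are those of 5 protein complexes of the inner mitochondrial membrane, read in 4 clonal mouse neural stem cell lines. They were taken by name: every probe set annotated with 1 gene symbol that starts with Nduf (complex I), Sdh (complex II), Uqcr (complex III), Cox4, Cox5, Cox6, Cox7 or Cox8 (complex IV) or Atp5 (complex V), together with Cyc1 of complex III. This gave 102 of 12403 gene probe sets, for 74 genes. A probe set, a group of short probes for 1 transcript, was tested where at least 2 of 4 arrays read above the median of all values, and 74 member probe sets for 66 genes passed. The other 8 genes (Ndufa12, Ndufc2, Cox5a, Cox6a2, Cox6b2, Cox7a1, Cox8a and Atp5j2) had 11 probe sets with signals from 2.8 to 114 and were not tested. Each tested gene is given below by its brightest tested probe set, beside the same quantity over all 4957 genes tested.

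All 4 lines derive from c17.2, a mouse neural stem cell line that has been immortalised, and were grown under proliferating conditions. Clone 42 and clone 48 carry stably transfected the nuclear receptor Nurr1, the product of the gene Nr4a2. The control lines puroB and puroD carry the empty puromycin vector. The labels match clone 42 with puroB and clone 48 with puroD for similar proliferation rates, and the question of the series is how lines with Nurr1 differ from their matched controls. Every line is a single clone and was read on 1 array from 10 µg of total RNA, so that a difference between groups of 2 clones includes whatever sets 1 clone apart from another. The Nr4a2 probe sets did not read higher in the clones labelled Nurr1. One of them read 320 for clone 42, 206 for clone 48, 485 for puroB and 254 for puroD, and the other 188, 113, 372 and 213. Signals are listed in this order of clones throughout. Both were lower in the Nurr1-labelled clone of each pair (fitted log2 differences -0.45 ± 0.30 and -0.95 ± 0.34, SE, n = 2 clones per group, limma adjusted p = 0.871 and 0.453). The sources used here do not say whether these probes match the transfected sequence, so the clones are called Nurr1-labelled throughout.

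Median signals of the arrays differed, from 125.6 in clone 48 to 160.1 in puroB. As a sign of RNA quality, the 3' to 5' signal ratio of actin ran from 1.51 in puroB to 2.41 in clone 48, and that of Gapdh from 0.859 in puroB to 1.24 in clone 48. Of the 8 neural stem markers on the array, 4 were tested, and Vim, Msi1, Pax6 and Prom1 did not pass the filter. Nes read between 3027 and 3716 on every array. At the trimmed-mean scaling, the other tested ones were lower in both Nurr1-labelled clones than in both controls: Fabp7 read 564, 157, 1291 and 1537, Notch1 365, 415, 495 and 523, and Id2 311, 426, 496 and 590.

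The respiratory chain oxidises NADH and succinate from the tricarboxylic acid cycle and passes the electrons to oxygen. Complex I takes electrons from NADH and complex II from succinate, both hand them to ubiquinone, complex III moves them on to cytochrome c, and complex IV, cytochrome c oxidase, reduces oxygen. Complexes I, III and IV pump protons, and complex V, the ATP synthase, uses the proton gradient to make ATP. Apart from complex II, each complex joins the nuclear-encoded subunits described here to protein made from mitochondrial DNA, whose transcripts are not analysed here.

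The main pattern lay in 1 control clone. PuroB had the lowest signal of the 4 arrays for 43 of 66 genes (65.2%, against 20.6% of all genes tested). Clone 48 was lowest for 10 genes, clone 42 for 7 and puroD for 6. PuroB was highest for 3 genes, Ndufv1, Cox8b and Cox8c (4.55%, against 28.1% of all genes), while puroD was highest for 26, clone 42 for 20 and clone 48 for 17. With the median of the 66 genes as a summary, puroB stood 0.54 below puroD on the log2 scale, a ratio of 0.687, where the median of all genes was 0.07. The 2 Nurr1-labelled clones differed less: clone 42 minus clone 48 had a median of 0.10, which turned to -0.12 when the arrays were scaled to a common median. The 3' to 5' ratios of both control transcripts were also lowest in puroB, and whether this has a part in the pattern was not tested. In RNA of whole cultures, less of a transcript per cell and fewer cells that make it cannot be told apart.

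In the first matched pair, 54 of 66 genes read higher in clone 42 than in puroB, against 2214 of all 4957 genes. The median log2 difference of the chain was 0.40 (1.32-fold), where all genes had -0.06. Of the 66 genes, 20 (30.3%) were at least 1.5-fold higher, against 11.3% of all genes. In the other pair, 43 of 66 genes read lower in clone 48 than in puroD, against 2506 of all 4957 genes. The chain's median was -0.18 (0.882-fold), where all genes had 0.00. This median turned to 0.04 when the arrays were scaled to a common median, and 31 of the 66 genes then read lower. Only 6 genes (9.09%) were at least 1.5-fold lower in clone 48, a share near the 10.3% of all genes, and 1 gene, Ndufc1, was at least 1.5-fold higher. Between the controls, 26 genes (39.4%) were at least 1.5-fold lower in puroB than in puroD, against 9.58% of all genes, and none was 1.5-fold higher. PuroB enters both the first pair and the comparison of the controls, and puroD enters the other pair and the same comparison, so these counts are not independent of each other.

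**Figure D1:**
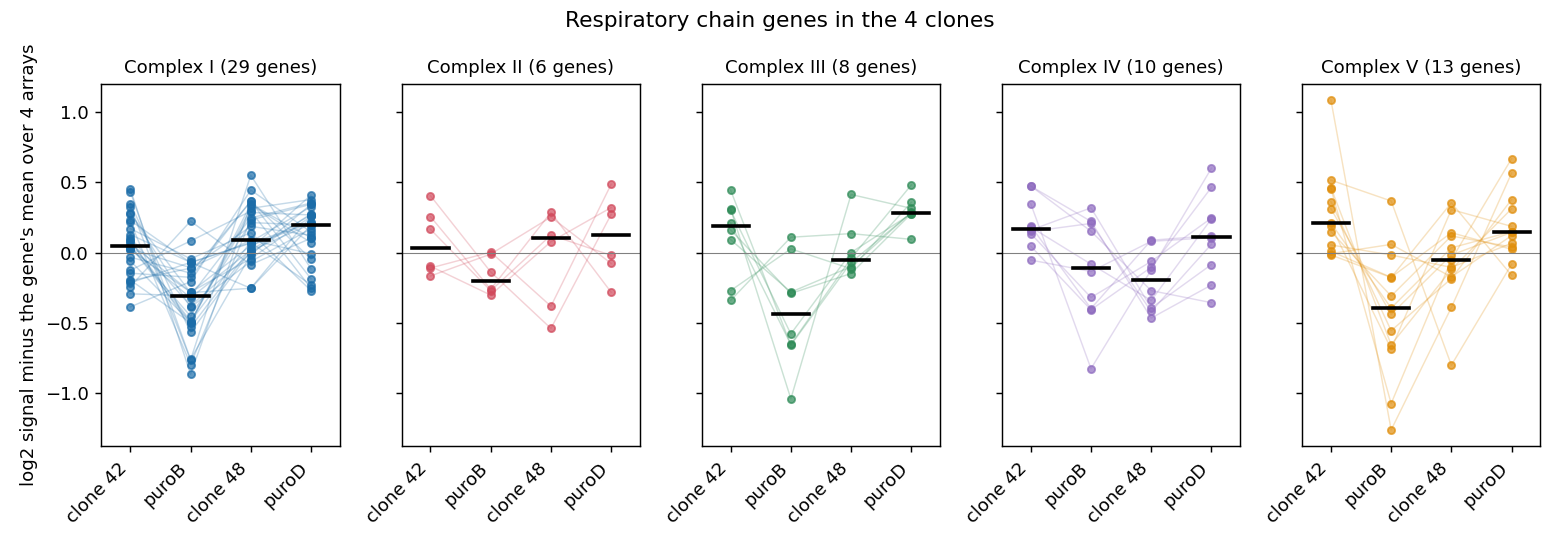
Log2 signal of each of 66 respiratory chain genes minus the mean of that gene over the 4 arrays (vertical axis) in the 4 clones (horizontal axis), 1 panel per complex. Points are genes, thin lines join a gene across clones and black bars are medians over genes; puroB holds the lowest bar in complexes I, II, III and V.

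Scaling to a common median shifted all genes alike, and it moved the median over all genes to 0.06 in the first pair, 0.21 in the other pair, -0.07 between the controls and 0.15 in the fit of both pairs. The chain's medians then became 0.53, 0.04 and -0.67 for the 2 pairs and the controls. PuroB was lowest for 50 of 66 genes under that scaling (75.8%, against 34.1% of all genes) and for 41 after quantile normalization (62.1%, against 25.1%). Strong signals as such leaned the same way. In the eighth of tested genes with the highest mean signal, 620 genes, puroB was lowest for 32 of 41 respiratory chain genes (78%) and for 34.9% of the others. In that eighth the median log2 difference between puroB and puroD was -0.58 for the chain genes and -0.08 for the others.

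The signs of the 2 pairs were then set side by side. For 36 of 66 genes (54.5%) clone 42 read above puroB and clone 48 below puroD, against 22.3% of all genes. Another 18 (27.3%, against 22.4% of all genes) were higher in both pairs, and 7 (10.6%, against 28.3%) were lower in both. Under the common-median scaling 29 genes (43.9%, against 16.7% of all genes) were higher in the first pair and lower in the other, 29 (43.9%, against 38.5%) were higher in both and 2 (3.03%, against 15.0%) lower in both. Both Nurr1-labelled clones lay above both controls for 11 genes (16.7%, against 13.3% of all genes), and below both for 4 (6.06%, against 17.3%). After quantile normalization these were 12 (18.2%, against 16.0% of all genes) and 4 (6.06%, against 14.8%). Under the common-median scaling they were 14 (21.2%, against 25.1%) and 0 (against 8.1%).

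**Figure D2:**
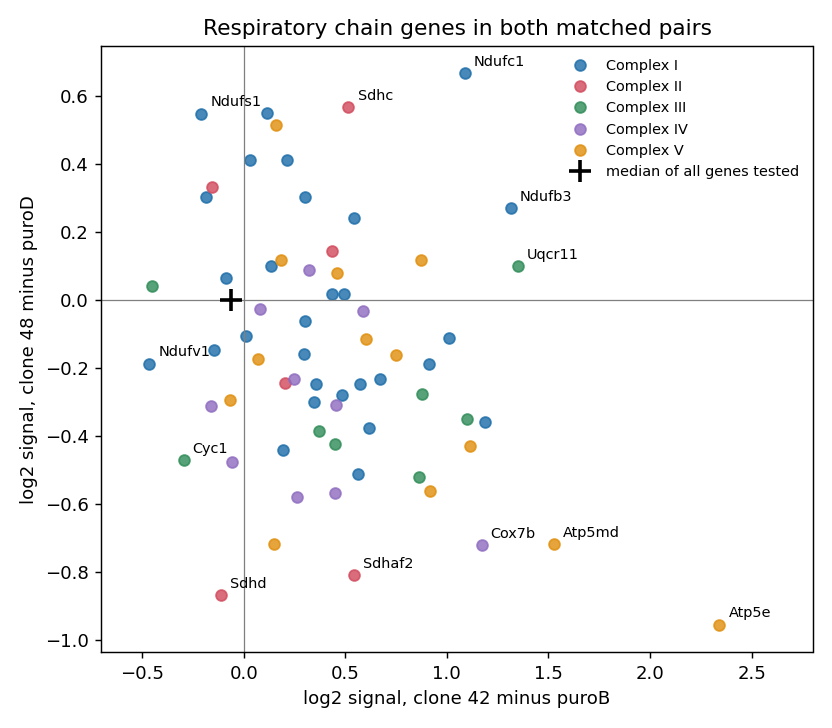
Log2 signal difference of each respiratory chain gene in the pair clone 42 and puroB (horizontal axis) and in the pair clone 48 and puroD (vertical axis), coloured by complex, with the median of all genes tested as a cross. The lower right part holds 36 of 66 genes, led by Atp5e, and the upper right part holds 18, led by Ndufc1 (29 and 29 when the arrays are scaled to a common median).

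No member passed the test over both pairs. With the pair as a block in limma, 0 of 74 member probe sets had an adjusted p under 0.05 (limma, Benjamini-Hochberg over 6419 probe sets), against 0.109% of all probe sets tested, and their adjusted p ran from 0.45 to 1. At an unadjusted p under 0.05 there were 2 member probe sets (2.7%), of Ndufc1 and Ndufb3, against 7.38% of all; no other fit, by limma with another scaling, floor, filter, variance model or set of arrays, called a member either. The median fitted difference of the 66 genes was 0.16, and the standard errors of the members ran from 0.29 to 0.54, with a median of 0.32. For 48 of 66 genes the fitted difference was smaller than its standard error. These p-values rest on the disagreement between the 2 matched pairs of clones, and most of each variance was borrowed from the other tested probe sets. The fit had 1 residual degree of freedom per probe set, against 13.1 of the shared variance. Leaving out puroB turned the chain's median to -0.13, and the median of each complex became negative too (I -0.13, II -0.10, III -0.23, IV -0.14 and V -0.06). Without puroD it was 0.33, without clone 42 0.11 and without clone 48 0.17.

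**Figure D3:**
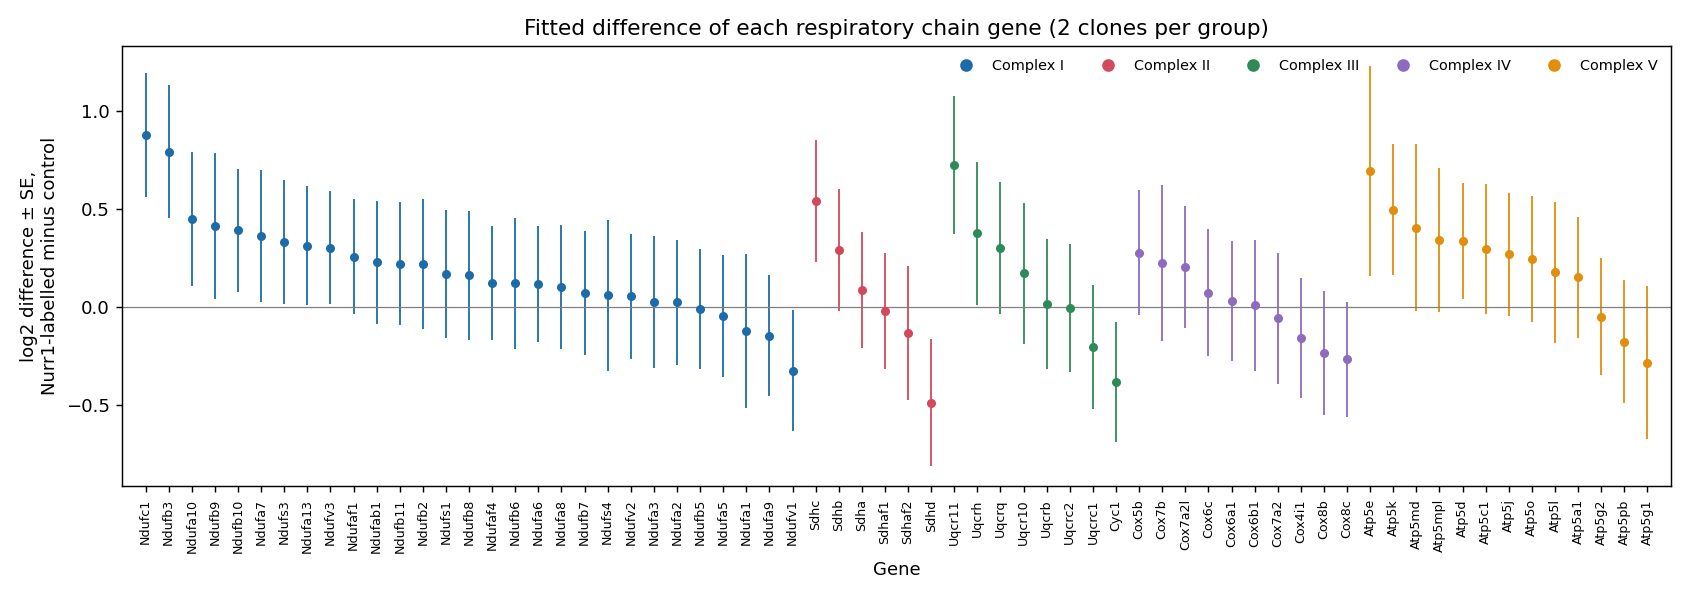
Fitted log2 difference between Nurr1-labelled and control clones (vertical axis) for each of 66 respiratory chain genes (horizontal axis), grouped and coloured by complex; bars are ± 1 SE from limma with 2 clones per group. Ndufc1 has the highest value, 0.88, Sdhd the lowest, -0.49, and no gene passed the adjusted threshold.

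Complex I, NADH dehydrogenase, is the largest complex of the chain and gave 29 tested genes. Its median was 0.35 in the first pair, -0.11 in the other (0.11 when scaled to a common median), and -0.56 between puroB and puroD, and puroB was lowest for 20 genes. None passed the test.

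Roles of subunits, here and in the other complexes, were assigned after the values were seen. The 4 tested core subunits did not share the pattern of complex I by their median. Their median difference between puroB and puroD was 0.08, or -0.05 with the common-median scaling. Ndufv1, the subunit that binds NADH, read 6544 for clone 42, 7288 for clone 48, 9030 for puroB and 8302 for puroD, and both controls lay above both Nurr1-labelled clones, though the groups overlapped under the common-median scaling. Ndufs1, the largest iron-sulfur subunit, read 2223, 2973, 2568 and 2035, with puroD lowest. For Ndufs3, a subunit of the arm that reaches into the matrix, the signals were 1913, 2518, 1769 and 1720, and both Nurr1-labelled clones were above both controls. Ndufv2 (3754, 3713, 2934 and 4413) was the one core subunit lowest in puroB. Fitted differences of these 4 genes lay between -0.33 and 0.33, each near or below its standard error of about 0.31 to 0.33.

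The 23 accessory subunits, which surround the core and carry no redox centre, were most of the 29 tested genes of complex I. PuroB was lowest for 17 of these subunits (73.9%, against 69.0% of the whole complex) and below puroD for 21, with a median difference of -0.56. Ndufc1, a small accessory subunit of the membrane arm, read 5050 for clone 42, 5895 for clone 48, 2375 for puroB and 3718 for puroD. Both Nurr1-labelled clones exceeded both controls, 2.13-fold in the first pair and 1.59-fold in the other, and its fitted log2 difference was 0.88 ± 0.32 (limma adjusted p = 0.45; 0.185 to 1 over the other settings). Ndufb3, another membrane arm subunit, read 6034, 5588, 2423 and 4635, with both Nurr1-labelled clones again above both controls and a fitted difference of 0.79 ± 0.34 (limma adjusted p = 0.586). Without puroB these 2 differences were 0.55 and 0.33. Ndufb10 (3036, 3734, 2084 and 3162), which is needed for membrane arm assembly, had puroD between the Nurr1-labelled clones, and its difference was 0.39 ± 0.31.

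Other accessory subunits had puroB low and the remaining clones close together. Ndufb9, a membrane arm subunit, read 3814 for clone 42, 2800 for clone 48, 1673 for puroB and 3589 for puroD, a ratio of 2.28 in the first pair and of 0.78 in the other. Ndufa10, a subunit of the membrane arm, read 321, 324, 159 and 350, and puroD exceeded puroB 2.2-fold. In both genes the other 3 clones lay within a range smaller than their distance to puroB. Ndufv3 and Ndufa13 stood at the other end of the accessory group, lowest in puroD, with puroB above puroD by 0.16 and 0.23 on the log2 scale. The assembly factors Ndufaf1 and Ndufaf4, which help build the complex and are not part of it, were both lowest in puroB. Ndufaf1 read 666, 750, 473 and 741, and Ndufaf4 607, 864, 492 and 902.

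The promoters of Ndufa10 and Ndufaf4 are shown because both genes were lowest in puroB and hold different motifs. They cover 120 bases before the annotated start and 10 from it on, from RefSeq's annotation of GRCm38.p6, and are written 5′ to 3′ on the gene's strand. Capitals mark the CRE motif (TGACGTCA, known for binding CREB) in Ndufa10 and 2 overlapping matches of the NRF1 motif (GCGCATGCG, or CGCATGCGC on the opposite strand) in Ndufaf4.
Ndufa10, chr1:92473749-92473878, minus strand: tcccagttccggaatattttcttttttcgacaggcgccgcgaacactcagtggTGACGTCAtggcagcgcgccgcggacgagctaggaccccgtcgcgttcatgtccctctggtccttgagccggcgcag
Ndufaf4, chr4:24897963-24898092, plus strand: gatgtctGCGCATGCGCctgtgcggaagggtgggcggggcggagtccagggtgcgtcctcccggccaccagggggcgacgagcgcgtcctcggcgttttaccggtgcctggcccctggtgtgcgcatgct

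Complex II, succinate dehydrogenase, links the chain to the tricarboxylic acid cycle and is encoded wholly in the nucleus. The median of its 6 tested genes was 0.32 in the first pair, -0.05 in the other (0.17 when scaled to a common median) and -0.33 between the controls, and puroB was lowest for 2 genes. Sdha, the flavoprotein that oxidises succinate, read 597 for clone 42, 798 for clone 48, 665 for puroB and 635 for puroD, and its groups overlapped. Sdhb, the iron-sulfur subunit, read 4047, 3934, 2992 and 3561, with both Nurr1-labelled clones above both controls and a difference of 0.29 ± 0.31 (limma adjusted p = 0.964). The same order held for the membrane anchor Sdhc, which read 3971, 4054, 2777 and 2736. Its 2 pairs were alike, 1.43-fold and 1.48-fold, and its fitted difference was 0.54 ± 0.31 (limma adjusted p = 0.835). The other membrane anchor, Sdhd, went the opposite way, with 4003, 3316, 4329 and 6045. Both Nurr1-labelled clones were below both controls (overlapping with them under the common-median scaling), and the difference was -0.49 ± 0.33 (limma adjusted p = 0.87). Most of it came from the second pair, where puroD exceeded clone 48 1.82-fold. The assembly factors Sdhaf1 (717, 809, 622 and 957) and Sdhaf2 (444, 231, 305 and 405), which help fit the iron-sulfur and flavin cofactors, differed little over both pairs. Sdhaf2 was 1.46-fold higher in clone 42 than in puroB and 1.75-fold lower in clone 48 than in puroD.

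Complex III is ubiquinol-cytochrome c reductase. Its 8 tested genes had medians of 0.66 and -0.37 in the 2 pairs and -0.71 between the controls, and puroB was lowest for 6. The medians kept these signs under both other scalings. None of its genes passed the test.

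All 5 small subunits, which have no redox centre, were lowest in puroB, with a median of -0.94 between the controls. Uqcr11 read 4445 for clone 42, 4774 for clone 48, 1746 for puroB and 4459 for puroD. The other 3 clones were close together, and puroB lay 2.55-fold below both its match and the other control. The fitted difference was 0.72 ± 0.35 (limma adjusted p = 0.714), and 0.05 without puroB. Uqcrh, the hinge subunit that holds cytochrome c1 and cytochrome c together, read 7333, 5141, 3420 and 6559, and Uqcr10 read 6327, 5315, 3477 and 7626. In both genes the first pair differed by 2.14-fold and 1.82-fold upward, and clone 48 was below puroD. Uqcrq (14040, 11413, 7646 and 13815), which takes part in ubiquinone binding, and Uqcrb (3396, 2740, 2484 and 3678), which does so too, showed the same order of puroB lowest and clone 48 next.

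The 3 core members had a median of -0.33 between the controls (-0.07 after quantile normalization). Cyc1, cytochrome c1, which passes electrons to cytochrome c, read 6962, 7753, 8550 and 10748. Both Nurr1-labelled clones were below both controls (overlapping with them under the common-median scaling), and its fitted difference was -0.38 ± 0.31 (limma adjusted p = 0.905). Another tested probe set of Cyc1 gave -0.12. Uqcrc1, a core protein on the matrix side, read 3250, 4515, 4435 and 4389, with clone 42 apart and low. Its partner Uqcrc2 read 2564, 2244, 1980 and 2935, with puroB lowest and clone 48 next, the order seen in Uqcrb.

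The promoters of Uqcr11 and Uqcrh are shown because both genes were lowest in puroB under each scaling and hold motifs close to the start. Capitals mark the ETS motif (CCGGAAGT, or ACTTCCGG on the opposite strand) in both genes and the NRF1 motif across the start site of Uqcr11, the latter as CGCATGCGC.
Uqcr11, chr10:80406812-80406941, minus strand: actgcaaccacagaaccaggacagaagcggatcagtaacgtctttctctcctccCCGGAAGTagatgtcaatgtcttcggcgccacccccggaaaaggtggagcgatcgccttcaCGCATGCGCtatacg
Uqcrh, chr4:116075061-116075190, minus strand: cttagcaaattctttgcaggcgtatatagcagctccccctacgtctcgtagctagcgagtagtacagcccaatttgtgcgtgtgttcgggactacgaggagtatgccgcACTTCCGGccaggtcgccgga

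In complex IV the low readings were divided between puroB and clone 48. Its 10 tested genes had medians of 0.29 and -0.31 in the 2 pairs and -0.28 between the controls, and puroB was lowest for 5 and clone 48 for 4. Among the 7 subunits used in most tissues, every one read higher in clone 42 than in puroB and lower in clone 48 than in puroD (6 and 6 after quantile normalization, 7 and 5 under the common-median scaling), and the control median was -0.52. This group was set after the values were seen, and Cox7a2l, kept apart from it, read higher in clone 48 than in puroD (0.09). On the dimmer tested probe set of Cox4i1, clone 42 read lower than puroB (-0.06).

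Cox7b, a small subunit of the membrane part, read 3129 for clone 42, 2262 for clone 48, 1390 for puroB and 3730 for puroD. It was 2.25-fold higher in clone 42 than in puroB and 1.65-fold lower in clone 48 than in puroD, so that the Nurr1-labelled clones lay between the controls. Cox7a2, of the same membrane part, had the same order, with 7153, 6448, 5230 and 9556. Members of the Cox4 and Cox6 paralog families were also tested. Cox4i1, the main form of the subunit at which ATP and ADP regulate the enzyme, read 528, 368, 440 and 550 on a probe set that other transcripts may share, by its suffix. Cox6a1 read 6937, 7608, 6557 and 7746, and puroD, the highest, exceeded puroB, the lowest, 1.18-fold. Cox6b1 read 314, 164, 264 and 193, with clone 48 lowest. Both Cox4i1 and Cox6b1 were thus low in clone 48, Cox4i1 in puroB instead under the common-median scaling. Cox5b, a zinc-binding subunit, read 5496, 5125, 3660 and 5240, and Cox6c 7368, 6424, 5380 and 7954, both lowest in puroB.

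Forms of limited tissue range leaned differently. Cox8b, known as the form of heart and skeletal muscle, read 276, 188, 308 and 233, and Cox8c, known from testis, 793, 535, 825 and 745. Both were lowest in clone 48 and highest in puroB, with puroB above puroD by a median of 0.27. Under both other scalings clone 42 read above puroB for Cox8c, by 0.02 and 0.07. Another probe set of Cox8b, not tested, read 46.1, 49, 37.9 and 55.8, with puroB lowest. The other of Cox8c read at most 8.79. Their fitted differences were -0.24 ± 0.32 and -0.27 ± 0.30. The muscle forms Cox6a2 and Cox7a1 did not pass the filter. Cox7a2l, which links complex IV with complex III in supercomplexes, read 3604, 2153, 2884 and 2029. It had the highest value of all members for puroB minus puroD, 0.51, and was the one complex IV gene lowest in puroD.

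**Figure D4:**
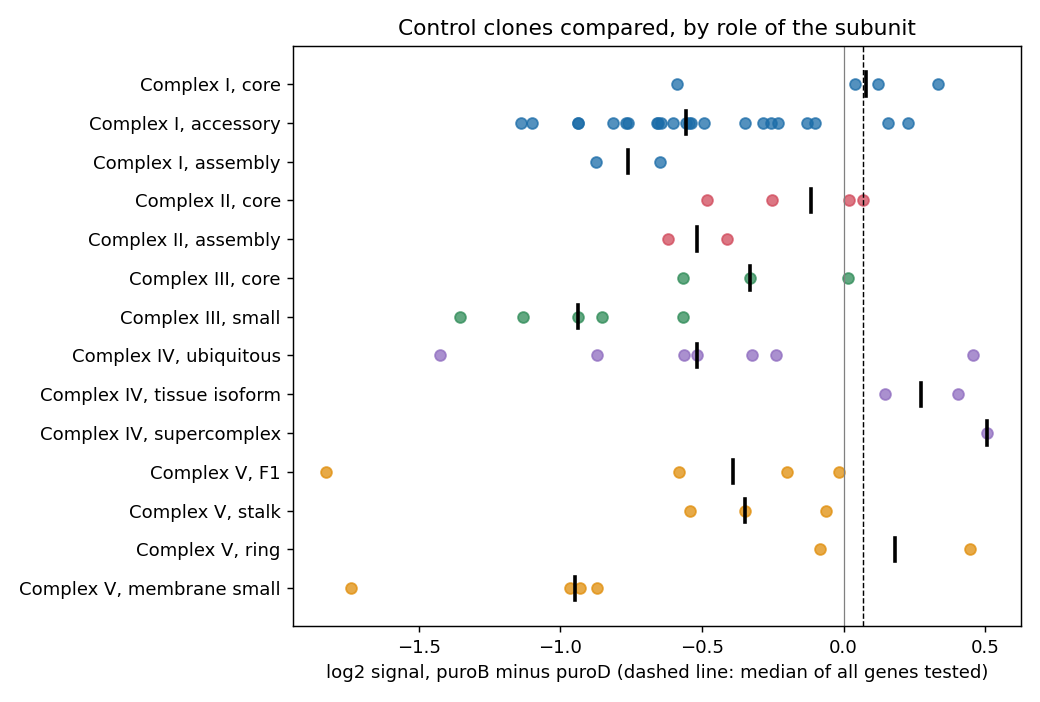
Log2 signal of puroB minus puroD (horizontal axis) for each of 66 respiratory chain genes, by complex and role of the subunit (vertical axis). Roles were assigned after the values were seen. Points are genes, black bars medians of each role and the dashed line the median of all genes tested, 0.07; the small subunits of complex III and the small membrane subunits of complex V have medians of -0.94 and -0.95, and the complex I core has 0.08 (-0.05 when the arrays are scaled to a common median).

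Complex V, the ATP synthase, had the largest median over both pairs, 0.27, and 12 of its 13 tested genes had clone 42 above puroB. Its medians were 0.60 and -0.17 in the 2 pairs (0.73 and 0.04 with the common-median scaling) and -0.54 between the controls, and puroB was lowest for 10 genes. None passed the test.

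The catalytic head, F1, gave 4 genes, all lowest in puroB. Atp5e, the epsilon subunit of the central stalk, has a single probe set, a suffixed one. It read 6148 for clone 42, 2215 for clone 48, 1212 for puroB and 4293 for puroD. Atp5e had the largest ratio of any member in the first pair, 5.07-fold higher in clone 42, and was 1.94-fold lower in clone 48 than in puroD. The fitted difference, 0.69 ± 0.54, had the largest standard error of all members (limma adjusted p = 0.896), and it was -0.22 without puroB and -0.04 without clone 42. Atp5d, the delta subunit, read 816, 1055, 730 and 738, with both controls alike and both Nurr1-labelled clones above them. A dimmer tested probe set of Atp5d (556, 544, 498 and 498) kept this order. On another (408, 561, 409 and 433) clone 42 was lowest. By their suffix, all tested probe sets of Atp5d may be shared with other transcripts. Of its probe sets without a suffix, none was tested. They read 142, 104, 144 and 142, with clone 48 lowest, and 78.5, 62.6, 30.3 and 25.4, with both Nurr1-labelled clones above both controls. Atp5a1, the alpha subunit, ranged from 5176 to 6447, and its puroB reading was no longer below puroD after quantile normalization (0.01). Atp5c1, the gamma subunit that turns within the head, read 7106, 5657, 4224 and 6325.

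The 4 small membrane subunits were all lowest in puroB, with a median of -0.95 between the controls. Atp5md, which helps join ATP synthase dimers, read 11677 for clone 42, 8231 for clone 48, 4054 for puroB and 13540 for puroD. PuroD exceeded puroB 3.34-fold, the Nurr1-labelled clones lay between them, and the fitted difference was 0.40 ± 0.43 (limma adjusted p = 0.958; -0.47 without puroB). Atp5mpl, a small membrane protein of the complex, read 10766, 7194, 4968 and 9700, and Atp5l, subunit g, 12786, 8757, 6778 and 12926. Both had clone 48 second lowest. In Atp5k, subunit e of the dimer contact, the signals were 279, 302, 152 and 278, so that puroB alone was low. Its fitted difference was 0.50 ± 0.33 (limma adjusted p = 0.871).

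The peripheral stalk, which holds the head still, showed smaller gaps. Atp5o, at its top, read 6248, 5531, 4112 and 5991, Atp5j, subunit F6, 4975, 4868, 3622 and 4611, and Atp5pb, subunit b, 258, 230, 270 and 282. PuroB was lowest for Atp5o and Atp5j. Atp5pb was lowest in clone 48, and in puroB under both other scalings. The ring of c subunits, which the proton flow turns, is encoded by several genes with different leader peptides. The 2 tested ones were both lowest in clone 48 (Atp5g2 in puroB under the common-median scaling). Atp5g1 read 236, 94.9, 213 and 156, and Atp5g2 read 927, 830, 882 and 935. Their fitted differences were -0.29 ± 0.39 and -0.05 ± 0.30, and that of Atp5g2 turned to 0.12 with the common-median scaling.

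The promoters of Atp5k and Atp5g2 are shown side by side because both hold the same NRF1 motif, in capitals, near the start site, while their patterns differed: Atp5k was 1.83-fold lower in puroB than in puroD, and Atp5g2 1.06-fold.
Atp5k, chr5:108434390-108434519, minus strand: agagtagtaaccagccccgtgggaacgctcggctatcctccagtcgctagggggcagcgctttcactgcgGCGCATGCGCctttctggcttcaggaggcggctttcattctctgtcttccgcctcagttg
Atp5g2, chr15:102671038-102671167, minus strand: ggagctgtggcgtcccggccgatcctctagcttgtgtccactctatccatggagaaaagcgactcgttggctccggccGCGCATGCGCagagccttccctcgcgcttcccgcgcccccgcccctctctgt

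NRF1 and ETS-family factors are known regulators of nuclear respiratory chain genes, and YY1 and CREB are others. Promoters of 250 bases before and 50 after the start were searched on both strands for 4 motifs: NRF1 as GCGCATGCG, ETS as CCGGAAGT, YY1 as AAGATGGCG and CRE as TGACGTCA. The RefSeq table (GRCm38.p6) held 65 promoters for 60 of the 74 genes. The NRF1 letters were in 8 of them (12.3%), against 1.75% of all 32851 promoters. The YY1 letters were in 5 (7.69%, against 1.4%), the ETS letters in 4 (6.15%, against 3.89%) and the CRE letters in 2 (3.08%, against 1.79%). A palindromic NRF1 match, as in Atp5k, Atp5g2 and Ndufaf4, is found on both strands at overlapping positions and was counted once per promoter.

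Low readings in puroB were counted for genes with and without each motif. Of the 8 tested genes with the NRF1 letters, 6 were lowest in puroB, with a median of -0.76 between the controls. Of the 45 tested genes with a promoter entry and without these letters, 29 were lowest in puroB, with a median of -0.52. For the ETS letters, 2 of 3 tested genes with them were lowest in puroB (median -0.94) and 33 of 50 without them (-0.53). For YY1 these were 2 of 4 (-0.35) and 33 of 49 (-0.55), and for CRE 2 of 2 (-0.85) and 33 of 51 (-0.52). No test was made on these small groups. These are counts of letters in a window and say nothing about binding.

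Genes with more than 1 tested probe set were Atp5c1, Atp5d, Atp5l, Cox4i1, Cyc1, Ndufb2 and Ndufv2. Fitted differences of their probe sets differed by 0.04 to 0.27 within a gene, less than the median standard error of 0.32. Between the controls, the probe sets of Cyc1 and Cox4i1 had opposite signs. The brighter one of Cyc1 gave -0.33 for puroB minus puroD and the other, with signals of 2550, 2311, 2965 and 2336, gave 0.34. For Cox4i1 the values were -0.32 and 0.37, the latter from signals of 219, 175, 228 and 176. In both genes puroB was thus the highest clone on the dimmer probe set. In Atp5c1, Atp5l, Ndufb2 and Ndufv2 all tested probe sets read lower in puroB than in puroD, with gaps of 0.10 to 0.48 within a gene, and the 3 of Atp5d lay between -0.08 and 0.00.

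Other genes of mitochondrial energy metabolism were set beside the chain by 8 lists. The median of puroB minus puroD was -0.42 for the 55 tested mitochondrial ribosomal protein genes, with 31 lowest in puroB, and -0.34 for the 20 tested genes of protein import, with 11 lowest in puroB. It was -0.30 for 8 assembly factors outside the rule, -0.18 for 9 metabolite carriers and porins, -0.08 for 11 regulators of mitochondrial biogenesis, -0.04 for 17 genes of the tricarboxylic acid cycle and pyruvate dehydrogenase, and -0.01 for 8 electron carriers. The last list and the cycle genes thus lay near 0, where the median of all genes was 0.07. Of the ribosomal genes, 49 of 55 read lower in puroB than in puroD, and of the chain genes 53 of 66, against 2184 of all 4957 genes. After quantile normalization the ribosomal median was -0.49, below the -0.44 of the chain. The list of mitochondrial DNA-encoded subunits had no gene on the array among those analysed here. No gene of these lists had a limma adjusted p under 0.05. At an unadjusted p under 0.05 there were 3 (1 each of the cycle, carrier and ribosomal lists), against 338 of all 4957 genes.

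In the first pair the cycle genes had a median of -0.26 and the chain 0.40. Pdk1, the kinase that switches off pyruvate dehydrogenase, read 119 for clone 42, 240 for clone 48, 1050 for puroB and 313 for puroD. PuroB was high there, 8.81-fold above clone 42, and the fitted difference was -1.76 ± 0.47 (limma adjusted p = 0.187). Dlst, a subunit of the 2-oxoglutarate dehydrogenase complex, read 843, 883, 1372 and 1283, with both controls above both Nurr1-labelled clones and a difference of -0.62 ± 0.30 (limma adjusted p = 0.712). Cox17, the copper chaperone for complex IV, read 5770, 4934, 3475 and 4605, with puroB lowest. Esrra, a nuclear receptor that regulates respiratory genes, read 845, 563, 996 and 1033, and its puroB level was close to that of puroD. Mrpl41, a protein of the large mitochondrial ribosomal subunit, read 799, 557, 268 and 780, a low puroB reading like that of Atp5md or Cox7b.

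**Figure D5:**
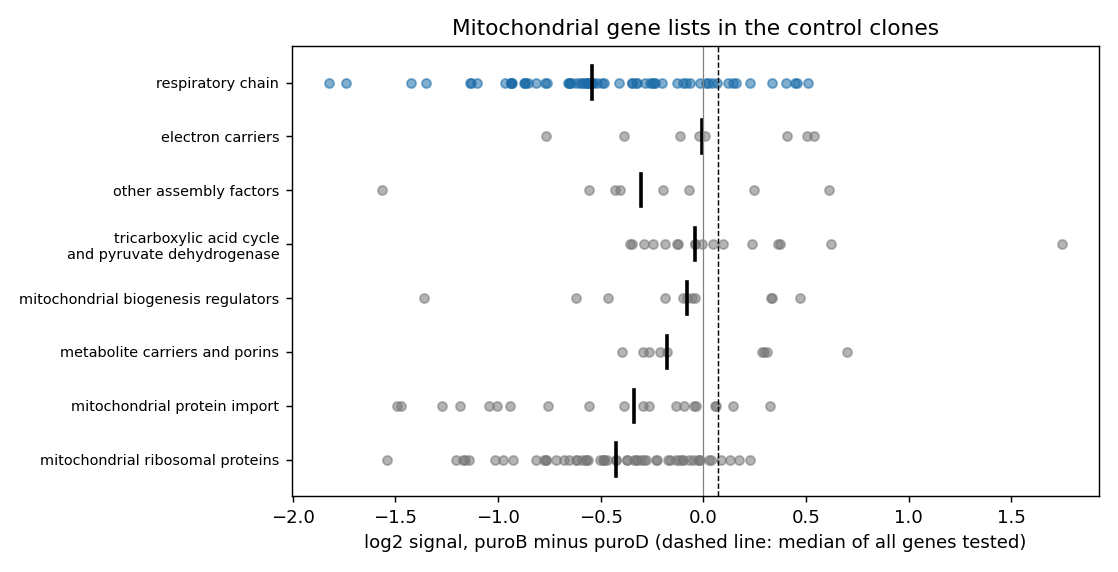
Log2 signal of puroB minus puroD (horizontal axis) for the respiratory chain genes and 7 other mitochondrial gene lists (vertical axis). Points are genes, black bars list medians and the dashed line the median of all genes tested, 0.07. At this scaling the chain has the lowest median, -0.54, followed by the mitochondrial ribosomal proteins with -0.42. After quantile normalization the ribosomal proteins have the lower value, -0.49, and the chain -0.44.

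Among markers of other cell types, the summed signal of 5 fibroblast genes, 3 of them tested, was 8061 for clone 42, 5280 for clone 48, 2163 for puroB and 3484 for puroD. The low sum in puroB came from Col3a1 (5015, 4006, 1287 and 1749) and Col1a2 (2688, 1006, 524 and 1053). Col1a1 (267, 207, 239 and 559) and Dcn were lowest in clone 48, and Lum was highest in puroB, with 77.7. The neuronal list, with 3 of the 6 genes on the array tested, summed to 6617, 5358, 3132 and 3147, most of it Tubb3. The tested genes Tubb3, Nefl and Nefm read higher in both Nurr1-labelled clones than in both controls. Map2, not tested, went the other way with 45.8, 4.2, 198 and 120. Syt1 read at most 20.7, in puroB, and Snap25 at most 4.3. Oligodendrocyte genes, with 2 of 3 tested (Mbp and Mag), summed to 217, 250, 334 and 275, while Mog read at most 7.59. Microglial genes, with 3 of 5 tested (Csf1r, C1qb and Cx3cr1), summed to 722, 537, 752 and 672, while Aif1 read at most 13.9. Astrocyte genes, with S100b alone of 3 tested, summed to 1662, 654, 871 and 678, and muscle genes, with 2 of 5 tested, to 678, 464, 604 and 577. The part of any of these in the chain's values was not tested.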

How the data were processed

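RNA of 4 clones was read on Affymetrix mouse arrays, 1 per clone. The authors deposited a linear intensity for every probe set and array in 12469 rows. The submitters' processing notes name MAS5; no version or scaling target is given in the sources used here. The deposited trimmed means (2% off each end) were already 500.4 to 500.5. Here each array was rescaled to a trimmed mean of 500, values under the 30th percentile were raised to that floor, and log2 was taken. Without 66 array controls, 12403 gene probe sets remained, of which 6419 were tested (at least 2 of 4 arrays above the median of all values); signals in the text are rescaled, before the floor. The filter, floor and scaling can each change a number.

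Nurr1-labelled and control clones were tested with limma 3.58.1 (R 4.3.3; matched pair as a block, eBayes with intensity trend, Benjamini-Hochberg, threshold 0.05); the code was checked on simulated data. The fit has 1 residual degree of freedom. The sample descriptions give the pairs (the design text repeats the number of clone 42); same-pair deviations correlated with r = 0.19 across genes. The 2 clones per group limit the precision. Single arrays were compared by log2 ratio, without a test.

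Genes came from the platform annotation, by symbol. Members, lists and motifs were chosen with earlier results of these data known, and roles of subunits were assigned after their values were seen. Named genes were, per complex, the 4 of the largest mean difference with 1 sign in both pairs, the 2 of the largest difference between pairs, paralog families, Sdh genes, Cyc1, assembly factors and up to 2 genes per other list; further members are given to complete a role. Alternatives were quantile normalization, a common median, no floor, other filters, no block, no trend, other probe set choices and leaving out each array.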

Additional observations from a re-analysis of the deposited data

Results flagged for a closer look

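The median log2 differences of the 2 matched pairs had opposite signs for the whole chain and for every complex, and they lay apart by 0.58 for the chain, 0.45 for complex I, 0.37 for complex II, 1.03 for complex III, 0.60 for complex IV and 0.78 for complex V. These gaps compare 1 array with 1 array in each pair, and the difference between the pairs was not tested. With arrays scaled to a common median, the second pair's medians of the chain and of complexes I, II and V were above 0, so that the opposite signs remained in complexes III and IV.

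Probe sets whose annotation names a respiratory chain gene and a near-identical copy or pseudogene fell outside the rule, since signals of the 2 cannot be told apart. There were 10 of these, 9 were tested, and 7 of the 9 were lowest in puroB, among them 1 annotated to Ndufs5 and its pseudogene (3782 for clone 42, 3931 for clone 48, 1686 for puroB and 3085 for puroD) and 1 annotated to Ndufa11 and Ndufa11b (1781, 1915, 1110 and 2102).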

How the results depend on the processing

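No respiratory chain probe set passed the threshold under any setting run. The count over all probe sets moved more, from 7 to 0 after quantile normalization, with no floor, with no filter and with no replicate block (the matched pair left out of the fit), to 51 with a common median and to 49 with a filter on all 4 arrays; leaving out an array gave 0 to 51 (17 without clone 42, 51 without clone 48, 0 without puroB, 2 without puroD). Dropping the block changed no call of a member. These fits without an array have no block and assume that the lone clone varies like the others. The cause of these shifts was not tested.

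Chain medians ran from 0.33 to 0.53 for clone 42 against puroB, from -0.18 to 0.04 for clone 48 against puroD, from -0.67 to -0.44 for puroB against puroD and from -0.12 to 0.11 for clone 42 against clone 48, and from -0.13 to 0.33 in the fit when an array was left out. Complex II's fitted median, 0.03, was -0.02 without suffixed probe sets, and complex IV's ran from -0.15 to 0.19. PuroB's count of lowest readings was 31 of 50 genes without suffixed probe sets and 43 of 63 with the filter on all 4 arrays.

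Of 330 values of the 48 tested named genes with all arrays in, 323 kept their sign. Other filters, no block and no trend leave a fitted difference unchanged in this balanced design, so most of these values could not turn. The 7 that turned all came from the other scalings. With a common median, 5 turned: Atp5g2 to 0.12, Cox4i1 to 0.01, Cox7a2 to 0.11, Sdhaf2 to 0.04 and Sdhaf1 to 0.15. After quantile normalization, Cox6a1 turned to 0.00 and Sdhaf1 to 0.01. Leaving out an array turned the sign of 23, none past the threshold, with ranges of -0.22 to 1.61 (Atp5e), -0.94 to 0.37 (Atp5g1), -0.13 to 0.03 (Atp5g2), -0.47 to 1.27 (Atp5md), -0.42 to 0.10 (Cox4i1), -0.09 to 0.15 (Cox6a1), -0.46 to 0.48 (Cox6b1), -0.49 to 0.38 (Cox7a2), -0.17 to 0.58 (Cox7a2l), -0.49 to 0.94 (Cox7b), -0.51 to 0.04 (Cox8b), -0.55 to 0.02 (Cox8c), -0.23 to 1.32 (Mrpl41), -0.12 to 1.02 (Ndufa10), -0.07 to 0.58 (Ndufaf1), -0.32 to 0.56 (Ndufaf4), -0.14 to 0.97 (Ndufb9), -0.02 to 1.34 (Polg), -0.12 to 0.30 (Sdha), -0.33 to 0.29 (Sdhaf1), -0.60 to 0.34 (Sdhaf2), -0.40 to 0.74 (Uqcr10) and -0.10 to 0.84 (Uqcrh).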
